A study of Mus musculus with 12 samples.

Results

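The 6 myeloid C-type lectin receptor genes Clec7a, Clec4d, Clec4e, Clec4n, Clec12a and Clec5a were examined for chromatin accessibility in mouse blood progenitors that make normal or reduced amounts of PU.1. Every open chromatin region overlapping the body of one of these genes, extended by 10 kb on either side (GENCODE M21 basic annotation, GRCm38), was taken as a member, which gave 35 of the 121336 regions of the whole data set. Clec12a held 12 of them, Clec4d 7, Clec5a 6, Clec4e 4, Clec7a 4 and Clec4n 3, with 1 region lying in the windows of both Clec4n and Clec4d. All 35 regions lie on chromosome 6, in 3 stretches: around Clec5a, around the neighbours Clec4n, Clec4d and Clec4e, and around the neighbours Clec12a and Clec7a.

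ATAC-seq, which counts transposase cuts and thereby reports how open the DNA is, was carried out on bone marrow cells sorted from C57BL/6 young adult littermates. WT mice carried an intact Spi1 locus, and URE mice (UREd/d) were homozygous for a deletion of the upstream regulatory element, a distal enhancer of Spi1, the gene that encodes PU.1. The deletion is constitutive, so it was present in every cell of the animal and not only in the sorted populations. LSK cells (Lin- Sca-1+ c-Kit+) hold stem and multipotent progenitor cells, and GMPs (Lin- Sca-1- c-Kit+ Cd16/32+) are the progenitors committed to granulocytes and monocytes. The groups are WT-LSK, WT-GMP, URE-LSK and URE-GMP, and each of these 4 had 3 libraries, from 1 mouse each as the methods describe. Expression of the receptors was not measured in these files.

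C-type lectin receptors of this kind sit on monocytes, macrophages, dendritic cells and neutrophils and read sugars and lipids of fungi, bacteria and dying cells. Clec7a (Dectin-1) binds beta-glucans and recruits the kinase SYK through its own cytoplasmic tail. Clec4n (Dectin-2), Clec4d (MCL) and Clec4e (Mincle) signal through the FcR gamma chain encoded by Fcer1g, while Clec5a (MDL-1) uses the adaptor DAP12 encoded by Tyrobp. These activating receptors meet at SYK and the adaptor CARD9. Clec12a (MICL) has the opposite role, since it is an inhibitory receptor that recruits the phosphatases SHP-1 and SHP-2. PU.1 is a master regulator of myeloid genes that recognises a GAGGAA core.

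Regions are named here by the gene and by the distance of the region's midpoint from the nearest start site of that gene, with a minus sign for upstream and a plus sign for downstream in the direction of transcription. The promoters of Clec7a, Clec5a, Clec4e and Clec12a are shown first, as GRCm38 sequence before the start site, 5′ to 3′ on the strand of the gene. Those of Clec7a and Clec5a were called lower in both cell types, and that of Clec12a in LSK but not in GMP. That of Clec4e was not called for genotype. Capitals mark matches on either strand to 6 short motifs: GAGGAAGT and its shorter core GAGGAA (PU.1), EICE (a composite of an ETS and an IRF half-site), AACCACA (RUNX), TTGCNNAA (C/EBP) and TGANTCA (AP-1). The GAGGAA core is contained in GAGGAAGT, and a match on the other strand is printed as its reverse complement, for example TTCCTC. The stretches are chr6:129472780-129473029 on the minus strand, chr6:40585822-40586071 on the minus strand, chr6:123289871-123290120 on the minus strand and chr6:129349859-129349963 on the plus strand. The Clec12a stretch is shorter because an exon of an alternative transcript model lies before it.
Clec7a promoter: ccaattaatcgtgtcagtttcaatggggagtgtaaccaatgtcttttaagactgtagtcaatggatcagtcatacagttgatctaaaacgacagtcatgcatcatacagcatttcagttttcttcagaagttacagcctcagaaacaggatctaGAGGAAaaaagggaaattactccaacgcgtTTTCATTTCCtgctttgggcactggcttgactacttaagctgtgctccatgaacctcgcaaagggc
Clec5a promoter: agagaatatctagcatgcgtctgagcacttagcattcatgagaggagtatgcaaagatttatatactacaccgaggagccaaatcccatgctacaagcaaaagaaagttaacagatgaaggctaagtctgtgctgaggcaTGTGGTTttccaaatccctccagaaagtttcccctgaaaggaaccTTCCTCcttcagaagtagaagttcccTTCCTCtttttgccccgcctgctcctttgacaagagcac
Clec4e promoter: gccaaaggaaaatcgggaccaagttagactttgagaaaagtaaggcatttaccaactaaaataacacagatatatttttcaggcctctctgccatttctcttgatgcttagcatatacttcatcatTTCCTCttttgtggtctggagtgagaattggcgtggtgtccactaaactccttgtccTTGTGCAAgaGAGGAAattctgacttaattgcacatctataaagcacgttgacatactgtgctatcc
Clec12a promoter: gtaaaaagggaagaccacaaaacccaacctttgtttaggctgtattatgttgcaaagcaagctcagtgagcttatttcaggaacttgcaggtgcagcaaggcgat

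The Clec7a stretch held 1 GAGGAA core and 1 EICE match, the Clec5a stretch 2 GAGGAA cores and 1 RUNX match, and the Clec4e stretch 2 GAGGAA cores and 1 C/EBP match. The 105 bases shown for Clec12a held none of the 6 motifs, but they are only part of the open region there. That whole region, Clec12a +38 bp (902 bp), held GAGGAA, TTGCNNAA and TGANTCA. Among the 250 bases before the start of 21931 protein-coding genes, 22.9% held GAGGAA, 2.45% the EICE, 4.29% AACCACA and 9.23% TTGCNNAA, so the core alone is common. A match describes letters only and is not evidence of binding.

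A selection of distal regions is shown next, by the central 200 bases of each, again on the strand of the gene. Clec5a -2.8 kb (region chr6:40588384-40588754, shown chr6:40588469-40588668, minus strand), Clec4d -1.9 kb (region chr6:123259928-123260605, shown chr6:123260166-123260365, plus strand) and Clec12a +6.7 kb (region chr6:129356495-129356791, shown chr6:129356543-129356742, plus strand) gained accessibility in URE cells. Clec12a -5.4 kb (region chr6:129344396-129344724, shown chr6:129344460-129344659, plus strand) lost it in LSK cells, and Clec5a -9.3 kb (region chr6:40594855-40595442, shown chr6:40595048-40595247, minus strand) is shown because it held both the longer PU.1 motif and the composite motif.
Clec5a -2.8 kb: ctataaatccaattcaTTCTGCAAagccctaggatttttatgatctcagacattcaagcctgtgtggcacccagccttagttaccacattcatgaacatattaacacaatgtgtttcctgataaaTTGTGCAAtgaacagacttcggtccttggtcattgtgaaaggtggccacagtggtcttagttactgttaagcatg
Clec5a -9.3 kb: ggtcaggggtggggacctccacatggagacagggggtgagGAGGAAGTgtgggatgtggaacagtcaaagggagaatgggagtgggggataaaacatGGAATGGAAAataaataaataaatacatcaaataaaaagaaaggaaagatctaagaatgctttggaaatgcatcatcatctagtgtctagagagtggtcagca
Clec4d -1.9 kb: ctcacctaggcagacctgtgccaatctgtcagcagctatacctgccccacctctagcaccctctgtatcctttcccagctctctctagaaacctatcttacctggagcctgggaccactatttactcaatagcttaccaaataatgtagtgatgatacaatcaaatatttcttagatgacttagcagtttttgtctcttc
Clec12a -5.4 kb: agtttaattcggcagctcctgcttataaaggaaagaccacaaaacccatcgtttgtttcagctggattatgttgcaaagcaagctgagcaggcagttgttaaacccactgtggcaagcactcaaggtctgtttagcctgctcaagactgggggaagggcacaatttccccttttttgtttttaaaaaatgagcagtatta
Clec12a +6.7 kb: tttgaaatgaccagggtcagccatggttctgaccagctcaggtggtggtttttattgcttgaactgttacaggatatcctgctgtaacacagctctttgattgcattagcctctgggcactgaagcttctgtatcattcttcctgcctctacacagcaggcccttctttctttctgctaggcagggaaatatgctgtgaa

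Clec5a -2.8 kb held 2 C/EBP matches and no PU.1 match, and the central 200 bases of Clec4d -1.9 kb, Clec12a -5.4 kb and Clec12a +6.7 kb held none of the 6 motifs. Outside those bases, Clec4d -1.9 kb held GAGGAA and AACCACA, and Clec12a -5.4 kb and Clec12a +6.7 kb held TTGCNNAA. Read over whole regions, GAGGAA was found in members that rose in LSK and in members that fell. Over the central 200 bases of all 35 members, 13 (37.1%) held GAGGAA against 31.6% of the 121336 regions, and 2 (5.71%) held GAGGAAGT against 7.41%. The C/EBP letters were present in 9 (25.7%) against 12.4%, the AP-1 letters in 7 (20%) against 9.17%, the composite motif in 3 (8.57%) against 3.34% and the RUNX letters in 4 (11.4%) against 11.6%. The Clec12a -5.4 kb region and the region at the Clec12a start site resembled each other in sequence: of 230 aligned columns, 166 (72.2%) were identical, and the alignment score of 93 stood apart from the next highest, 36, among the 595 pairs of member regions.

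Total counts ranged from 23072701 to 62204826 per library, so that 3 counts corresponded to between 0.0520 and 0.126 CPM, the count scaled to a common library size adjusted by TMM. The genotype labels were checked in the deleted element itself, at chr2:91082790-91083700, which held 36.0 to 42.4 CPM in WT-LSK and 41.6 to 46.2 CPM in WT-GMP but no more than 6 counts in any URE-LSK and 2 counts in any URE-GMP library. Reads on the Y chromosome were present (20.9 to 34.3 CPM over 4 regions) in replicate 1 of all groups and replicate 3 of both URE groups, and at most 0.197 CPM was found in the other 6 libraries, so that libraries of both kinds were mixed within each group. Accessibility at the promoters of GMP markers (Mpo, Elane, Ctsg, Prtn3 and Cebpe, summed) was 28.4 to 34.4 CPM in WT-LSK, 24.6 to 50.2 CPM in URE-LSK, 191 to 244 CPM in WT-GMP and 321 to 337 CPM in URE-GMP, so at these markers the sorted populations differed as their labels say. All 5 rose from LSK to GMP in both genotypes. Of 5 stem and progenitor markers with a promoter region, 0 fell from LSK to GMP in WT and 1 fell in URE, so that panel separated the populations less. No region lay at the promoters of Ly6a, which encodes the Sca-1 antigen of the LSK gate, or of Fcgr3, which encodes part of the Cd16/32 antigen of the GMP gate.

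Markers of mature cells moved with genotype as well. For scale, 732 of the 19118 regions at start sites of any gene rose and 1469 fell in URE-LSK, and 916 rose and 1578 fell in URE-GMP. Of 8 monocyte markers, 5 promoter regions fell in URE-LSK and 3 in URE-GMP, and their summed signal was 84.1 to 95.2 CPM in WT-LSK, 77.2 to 89.6 in URE-LSK, while for GMP it was 123 to 139 (WT) and 89.6 to 110 (URE). Of 7 late neutrophil markers, 3 promoters rose and 1 fell in URE-GMP, with sums of 39.9 to 59.7 CPM in WT-GMP and 85.8 to 100 CPM in URE-GMP, while in LSK 2 rose and 3 fell, with sums of 14.2 to 17.3 CPM in WT and 7.78 to 8.86 CPM in URE. Erythroid and megakaryocyte markers (3 of 5 with a promoter region) summed to 49.2 to 65.6 CPM in WT-LSK, 72.7 to 74.7 in URE-LSK, and in GMP to 28.1 to 45.0 (WT) and 19.9 to 29.0 (URE), and 1 of them fell in URE-GMP. Of 2 mast cell and basophil markers 1 rose in URE-LSK, with sums of 29.7 to 36.2 CPM in WT-LSK and 40.8 to 45.5 CPM in URE-LSK, and of 26.0 to 37.1 CPM (WT) and 32.0 to 38.1 CPM (URE) in GMP. The 3 lymphoid markers summed to 12.8 to 15.7 CPM (WT) and 14.8 to 16.8 CPM (URE) in LSK and to 15.1 to 17.9 CPM (WT) and 19.2 to 20.6 CPM (URE) in GMP, and the 5 stem and progenitor markers to 263 to 270 CPM (WT) and 293 to 327 CPM (URE) in LSK and to 216 to 242 CPM (WT) and 227 to 241 CPM (URE) in GMP. Markers with no promoter region included Gata1, Klf1, Prss34, Ms4a2, Cd79a and Cd3e. The part of cell composition in the results below was not tested, and in sorted bulk cells a smaller share of cells with a region open cannot be told apart from less opening in each cell.

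Differences are given as log2 fold changes ± SE from edgeR's quasi-likelihood test, fitted to all regions and all 12 libraries, with p-values adjusted by Benjamini-Hochberg over all 121336 regions. The test itself returns no SE, so the absolute log2 fold change divided by the square root of the F statistic was used. A region was called, and is said to have risen or fallen, at an adjusted p under 0.05 with a log2 fold change beyond 1 in either direction. In LSK, 7 of the 35 regions rose in URE (20%, against 13.6% of all regions) and 11 fell (31.4%, against 23.9%). In GMP, 7 rose (20%, against 15.6%) and 6 fell (17.1%, against 24.1%). Taking both directions, 37.5% of all regions were called in LSK and 39.7% in GMP, beside 51.4% and 37.1% of the members. The median log2 fold change of the members was 0.07 in LSK and 0.14 in GMP, beside 0.14 and 0.06 over all regions. Regions that rose and regions that fell lay within the same windows at Clec5a, Clec12a and Clec4d.

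The split between gains and losses moved with the scaling. Using GC content offsets, 9 members rose and 8 fell in LSK and 14 rose and 6 fell in GMP, and with loess offsets 10 rose and 8 fell in LSK and 8 rose and 5 fell in GMP. Over all regions, 16501 rose and 29035 fell in LSK with TMM, against 26834 and 24716 with GC content offsets and 27906 and 21923 with loess offsets. In GMP, 18974 rose and 29185 fell with TMM, against 26956 and 23974 with GC content offsets and 24035 and 23494 with loess offsets. The median over all regions moved from 0.14 to 0.28 in LSK and from 0.06 to 0.21 in GMP with GC content offsets, and to 0.29 in LSK with loess offsets. The members are less rich in G and C than the rest, with a median GC content of 43.5% against 49.8%. None of the 18 calls in LSK or the 13 in GMP changed direction under any of the settings tried.

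**Figure D1:**
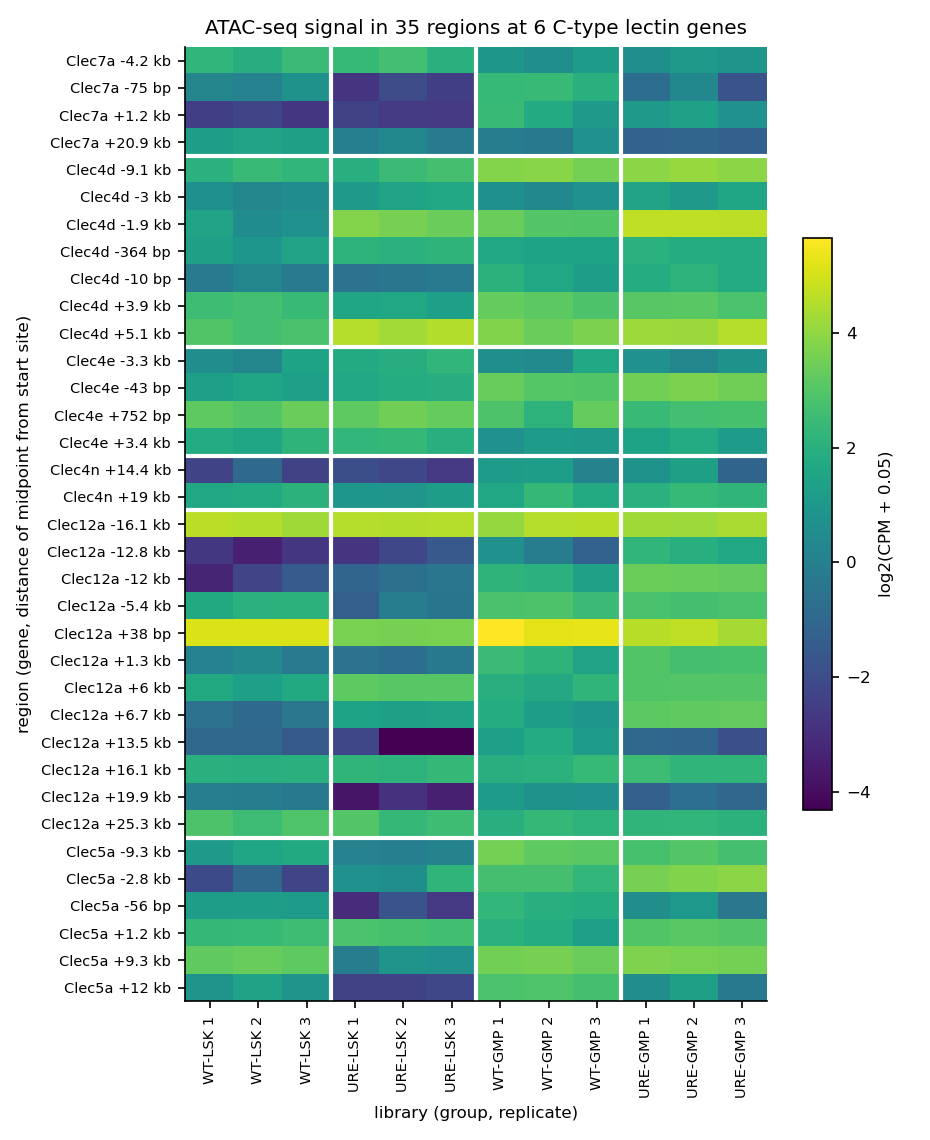
Accessibility of the 35 regions (rows, ordered by gene and by distance of the midpoint from the start site) in the 12 libraries (columns, 3 per group), coloured by log2(CPM + 0.05). The Clec12a start-site region (Clec12a +38 bp) is the brightest row in the WT columns, and Clec4d -1.9 kb and Clec12a +6.7 kb are brighter in URE than in WT columns of both cell types, whereas Clec7a -75 bp is darker.

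Clec7a lost accessibility at its promoter in both cell types. The promoter region, Clec7a -75 bp (chr6:129472686-129473019, spanning the start site and the 5′ untranslated region), held 1.13, 1.02 and 1.63 CPM in the 3 WT-LSK libraries and 0.0952, 0.195 and 0.128 CPM in URE-LSK. In WT-GMP it held 5.15, 5.31 and 4.03 CPM, against 0.560, 1.20 and 0.242 CPM in URE-GMP. Every URE library lay below every WT library of the same cell type. The log2 fold change was -3.19 ± 0.51, adjusted p = 5.59e-05 in LSK and -2.81 ± 0.39, adjusted p = 1.43e-05 in GMP, with a difference of 0.39 ± 0.63, adjusted p = 0.735 from LSK to GMP. As a ratio of mean CPM, the URE level was 9.02-fold lower in LSK and 7.25-fold lower in GMP. Without URE-GMP replicate 2 the GMP value was -3.56 and the step from LSK to GMP in URE 1.55 in place of 2.30 ± 0.52. At 4 to 7 counts per URE-LSK library the level there was close to the floor of the measurement.

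In LSK the strongest region of the Clec7a window lay upstream, at Clec7a -4.2 kb (chr6:129476828-129477143, intergenic), with means of 4.65 ± 0.893 CPM (SD, n = 3) in WT-LSK, 1.86 ± 0.318 CPM in WT-GMP, 5.16 ± 1.16 CPM in URE-LSK and 1.77 ± 0.270 CPM in URE-GMP. Its URE and WT libraries overlapped in both cell types (0.14 ± 0.22, adjusted p = 0.61 in LSK and -0.06 ± 0.24, adjusted p = 0.835 in GMP), and its sign is not settled, since it changed with the scaling and with single libraries. This region was less open in GMP than in LSK, by -1.33 ± 0.23, adjusted p = 0.000162 in WT and -1.53 ± 0.23, adjusted p = 1.98e-05 in URE. The intronic region Clec7a +1.2 kb (chr6:129471448-129471711) went the other way, from 4 to 6 counts per LSK library of either genotype to 5.31, 3.38 and 2.07 CPM in WT-GMP and 2.09, 2.60 and 1.62 CPM in URE-GMP.

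At Clec7a +1.2 kb the step from LSK to GMP was 4.78 ± 0.42, adjusted p = 3.52e-07 in WT and 4.10 ± 0.42, adjusted p = 3.74e-07 in URE, while the GMP genotype effect of -0.74 ± 0.30, adjusted p = 0.042 missed the fold threshold and its libraries overlapped. Without WT-GMP replicate 3, whose value was the lowest of its group, the effect was -1.01, and with GC content offsets it was 0.02. The last region of the window, Clec7a +20.9 kb (chr6:129451773-129452016), is the promoter and untranslated region of the neighbouring Clec1a, another lectin receptor gene, and fell in LSK (-1.39 ± 0.29, adjusted p = 0.000766) and GMP (-1.46 ± 0.33, adjusted p = 0.00107), calls that were lost with loess offsets (-0.55 and -0.98). In the GENCODE release used here Clec7a itself is typed as a polymorphic pseudogene, a label for genes that are intact in some strains only.

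Clec4d, the partner of Mincle, gained accessibility upstream and within its body. An intergenic region 1.9 kb upstream of its start site, Clec4d -1.9 kb, held 2.81, 1.39 and 1.61 CPM in WT-LSK and 13.8, 12.2 and 10.4 CPM in URE-LSK. In WT-GMP it held 10.2, 7.97 and 7.72 CPM and in URE-GMP 26, 25.9 and 25.1 CPM. URE libraries were above WT libraries without overlap in both cell types, and the URE-LSK values were above those of WT-GMP. The gain was 2.63 ± 0.22, adjusted p = 6.76e-08 in LSK (6.28-fold in mean CPM) and 1.58 ± 0.20, adjusted p = 5.43e-06 in GMP (2.97-fold in mean CPM), and it was smaller in GMP than in LSK by -1.06 ± 0.29, adjusted p = 0.0191.

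Within the gene, Clec4d +5.1 kb (chr6:123266901-123267472, overlapping coding sequence), the strongest region of its window in LSK but not in GMP, held 7.61, 6.32 and 6.88 CPM in WT-LSK and 23.4, 19.2 and 22.8 CPM in URE-LSK. It rose in LSK (1.65 ± 0.15, adjusted p = 1.6e-07). In GMP its values were 13.6, 10.4 and 12.9 CPM in WT and 18.5, 18 and 23.3 CPM in URE, again without overlap, but the difference of 0.70 ± 0.14, adjusted p = 0.000559 stayed under the fold threshold. With GC content offsets it passed, at 1.20.

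A nearby intronic region moved the other way: Clec4d +3.9 kb (chr6:123265915-123266194) fell in LSK from 5.87 ± 0.488 CPM to 2.81 ± 0.327 CPM (-1.06 ± 0.18, adjusted p = 8.57e-05), and in GMP was 8.61 ± 1.26 CPM for WT and 7.97 ± 0.739 CPM for URE (-0.11 ± 0.17, adjusted p = 0.6). This loss in LSK lay close to the fold threshold and missed it without URE-LSK replicate 3 (-0.97), with loess offsets (-0.87) and with GC content offsets (-0.49), and the GMP value changed sign with GC content offsets (0.49). At the start site itself there were 2 small regions. Clec4d -364 bp (chr6:123261637-123261870) in LSK had 2.37 ± 0.482 CPM for WT and 4.29 ± 0.212 CPM for URE (0.84 ± 0.19, adjusted p = 0.00137), under the fold threshold, which it passed with loess offsets (1.12) and GC content offsets (1.43). In GMP it had 2.83 ± 0.191 CPM in WT and 3.71 ± 0.387 CPM in URE (0.39 ± 0.19, adjusted p = 0.0819), and was called there with GC content offsets.

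Clec4d -10 bp (chr6:123261973-123262241), which covers the start site, was more open in GMP than in LSK in WT (1.80 ± 0.26, adjusted p = 3.13e-05) and in URE (2.41 ± 0.26, adjusted p = 6.97e-07), and gave -0.36 ± 0.28, adjusted p = 0.295 for the deletion in LSK and 0.26 ± 0.23, adjusted p = 0.354 in GMP. Its GMP value became a call with GC content offsets. Clec4d -3 kb (chr6:123259051-123259281) gave 0.90 ± 0.24, adjusted p = 0.00463 and 0.83 ± 0.24, adjusted p = 0.00682, both short of the fold threshold with URE libraries above WT libraries, and passed it with GC content offsets (1.38 and 1.33). Clec4d -9.1 kb (chr6:123252771-123253224), the region shared with the Clec4n window, was more open in GMP than in LSK in both genotypes (step 1.53 ± 0.18 in WT and 1.60 ± 0.18 in URE) with 0.17 ± 0.19, adjusted p = 0.435 and 0.24 ± 0.18, adjusted p = 0.245 for the deletion.

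Clec4e, which encodes Mincle, kept an open promoter in all 4 groups. Clec4e -43 bp (chr6:123289746-123290080) held 2.41, 2.86 and 2.45 CPM in WT-LSK and 3.12, 3.60 and 3.65 CPM in URE-LSK, then 10, 8.12 and 7.58 CPM in WT-GMP and 11.7, 12.8 and 11.4 CPM in URE-GMP. URE values lay above WT values in both cell types, by 0.43 ± 0.17, adjusted p = 0.042 in LSK and 0.49 ± 0.16, adjusted p = 0.0147 in GMP, both under the fold threshold, which the GMP difference passed with GC content offsets (1.08). The larger movement was the step from LSK to GMP, 1.74 ± 0.17, adjusted p = 8.55e-07 in WT and 1.79 ± 0.17, adjusted p = 1.41e-07 in URE. Clec4e +752 bp (chr6:123288875-123289361, overlapping coding sequence), which was stronger than the promoter region in LSK but not in GMP, had means of 9.10 ± 1.26 CPM, 7.17 ± 2.77 CPM, 10 ± 1.12 CPM and 6.07 ± 0.732 CPM in WT-LSK, WT-GMP, URE-LSK and URE-GMP, with overlapping genotypes in both cell types, and its genotype effects (0.13 ± 0.23 and -0.24 ± 0.23) changed sign under some settings. Clec4e +3.4 kb (chr6:123286366-123286650) gave 0.32 ± 0.23, adjusted p = 0.239 in LSK and 0.53 ± 0.24, adjusted p = 0.062 in GMP, where it was called with GC content offsets.

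For genotype, 1 region of the Clec4e window was called. Clec4e -3.3 kb (chr6:123293006-123293339, intergenic) held 1.44, 1.14 and 2.73 CPM in WT-LSK and 3.40, 3.71 and 4.70 CPM in URE-LSK, a rise of 1.11 ± 0.34, adjusted p = 0.0114. In GMP the values were 1.51, 1.28 and 3.11 CPM in WT and 1.61, 1.14 and 1.65 CPM in URE, which overlapped (-0.44 ± 0.35, adjusted p = 0.293). In WT, replicate 3 was the highest library in both cell types. This call missed the threshold without WT-LSK replicate 1 (0.91), WT-LSK replicate 2 (0.84) or URE-LSK replicate 3 (0.97), and with library size only (1.0) or a mean CPM of at least 2 (0.97).

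Clec4n, encoding Dectin-2, had no open region within 500 bp of its start site, and its nearest one was 14.4 kb into the gene. That region, Clec4n +14.4 kb (chr6:123244296-123244504), overlaps coding sequence and was nearly closed in LSK, with 0.157, 0.490 and 0.141 CPM in WT and 0.214, 0.167 and 0.107 CPM in URE. In GMP it reached 2.18, 2.31 and 1.06 CPM in WT and 1.68, 2.48 and 0.412 CPM in URE, so that it was more open in GMP (2.95 ± 0.62, adjusted p = 0.000743 in WT, 3.23 ± 0.63, adjusted p = 0.00026 in URE) and the genotypes overlapped in both cell types. Just past the end of the gene, Clec4n +19 kb (chr6:123248925-123249190, intergenic) gave 3.15, 3.43 and 4.16 CPM in WT-LSK and 1.86, 1.81 and 2.29 CPM in URE-LSK, a difference of -0.85 ± 0.22, adjusted p = 0.00348 that stayed under the fold threshold although the groups did not overlap. In GMP its values were 3.10, 4.93 and 3.41 CPM in WT and 4.09, 5.17 and 4.53 CPM in URE (0.26 ± 0.21, adjusted p = 0.292). The central 200 bases of this region held the GAGGAAGT motif, 1 of 2 members to do so.

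Clec5a, the DAP12-coupled receptor, changed at the most regions relative to its number, with 1 of 6 rising and 4 falling in LSK and 2 rising and 2 falling in GMP. Its promoter region, Clec5a -56 bp (chr6:40585722-40585997, reaching into the 5′ untranslated region), held 2.34, 2.37 and 2.17 CPM in WT-LSK and 0.0714, 0.251 and 0.107 CPM in URE-LSK. In GMP it held 4.89, 3.90 and 3.57 CPM in WT and 1.46, 1.98 and 0.727 CPM in URE. No URE library reached a WT library of its cell type. The loss was -4.02 ± 0.43, adjusted p = 8.93e-07 in LSK and -1.54 ± 0.31, adjusted p = 0.000502 in GMP, and it was smaller in GMP by 2.48 ± 0.54, adjusted p = 0.00568. Without URE-LSK replicate 2 the LSK loss was -4.62 and the difference 3.08. In counts, the 3 URE-LSK libraries together held 17 against 255 in WT-LSK, which after scaling is a ratio of 16.6 (95% counting interval 10.2 to 29.0).

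Upstream of this closing promoter a region opened. Clec5a -2.8 kb held 0.184, 0.449 and 0.161 CPM in WT-LSK and 1.59, 1.51 and 4.59 CPM in URE-LSK, where replicate 3 was well above the other libraries. In GMP it held 6.57, 6.46 and 4.86 CPM in WT and 12.1, 13.6 and 15.2 CPM in URE. The rise was 3.43 ± 0.47, adjusted p = 1.31e-05 in LSK and 1.19 ± 0.33, adjusted p = 0.00508 in GMP without overlap of the libraries, and it was smaller in GMP by -2.23 ± 0.59, adjusted p = 0.0161. Without URE-LSK replicate 3 the rise in LSK was 2.69 and the difference -1.49. This is the region shown above with 2 C/EBP matches and no PU.1 match.

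Clec5a +9.3 kb (chr6:40576320-40576672), the Clec5a region with the highest mean over all 12 libraries, though not within either URE group, covers the 3′ untranslated region. It held 9.37, 10 and 9.05 CPM in WT-LSK and 0.880, 1.76 and 1.62 CPM in URE-LSK. For GMP the values were 11.6, 12.3 and 10.4 CPM (WT) and 13.2, 12.6 and 12 CPM (URE). The URE-LSK libraries lay far below those of the other 3 groups. It fell in LSK (-2.74 ± 0.21, adjusted p = 3.07e-08, 6.68-fold lower in mean CPM), gave 0.14 ± 0.18, adjusted p = 0.515 in GMP, where the libraries overlapped, and differed between the cell types by 2.88 ± 0.27, adjusted p = 1.4e-05.

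Clec5a +12 kb (chr6:40573602-40574044), beyond the gene in an untranslated region of the olfactory receptor gene Olfr460, fell in both cell types, from 2.06 ± 0.513 CPM to 0.151 ± 0.0172 CPM in LSK (-3.71 ± 0.42, adjusted p = 1.84e-06) and from 7.01 ± 0.528 CPM to 1.57 ± 0.858 CPM in GMP (-2.13 ± 0.30, adjusted p = 2.05e-05). The difference between its 2 effects, 1.58 ± 0.54, adjusted p = 0.0542, became a call when the replicate number was fitted as a block (1.48 ± 0.46, adjusted p = 0.0347). It was also called with DESeq2, with a mean CPM of at least 2, with the block and GC content offsets together, and without URE-GMP replicate 3. The upstream region Clec5a -9.3 kb (chr6:40594855-40595442) fell in LSK from 2.73 ± 0.602 CPM to 1.01 ± 0.0601 CPM (-1.43 ± 0.22, adjusted p = 4.12e-05), a call lost with GC content offsets (-0.94), and gave -0.48 ± 0.19, adjusted p = 0.0388 in GMP. Clec5a +1.2 kb (chr6:40584357-40584765), which overlaps coding sequence, was the opposite case: it rose in GMP from 3.38 ± 0.876 CPM to 8.02 ± 0.419 CPM (1.26 ± 0.19, adjusted p = 3.45e-05) and gave 0.32 ± 0.19, adjusted p = 0.156 in LSK.

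Clec12a, the inhibitory member, had the most regions. Its start-site region, Clec12a +38 bp (chr6:129349552-129350453, 902 bp wide, covering the start site, untranslated and coding sequence), with the highest mean CPM of the 35 over all 12 libraries but not in either URE group, held 33.9, 34 and 34.6 CPM in WT-LSK and 12.5, 12.1 and 12.4 CPM in URE-LSK. In GMP it held 50.5, 38.4 and 38.6 CPM in WT and 24.3, 26.3 and 19.7 CPM in URE. The genotypes were separate in both cell types. It fell in LSK (-1.47 ± 0.12, adjusted p = 7.32e-08), a call lost with GC content offsets (-0.95), and gave -0.86 ± 0.12, adjusted p = 1.57e-05 in GMP, under the fold threshold, which it passed with loess offsets.

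Clec12a -5.4 kb lies inside the gene record but upstream of the start site of the basic transcript, and resembles the start-site region in sequence. It held 3.31, 4.12 and 4.24 CPM in WT-LSK and 0.357, 0.865 and 0.684 CPM in URE-LSK, with 15 to 32 counts per URE-LSK library. In GMP it held 6.86, 7.18 and 5.60 CPM in WT and 6.91, 6.52 and 6.83 CPM in URE, where the genotypes overlapped. The loss was -2.62 ± 0.25, adjusted p = 3.51e-07 in LSK against 0.05 ± 0.21, adjusted p = 0.861 in GMP, a difference of 2.67 ± 0.33, adjusted p = 0.000103. The GMP value changed sign with library size only (-0.07). Like Clec5a +9.3 kb, this region was low in URE-LSK, while its URE-GMP libraries overlapped those of WT-GMP.

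In the introns of the same gene, 2 neighbouring regions rose in both cell types. Clec12a +6.7 kb held 0.630, 0.490 and 0.724 CPM in WT-LSK and 2.74, 2.51 and 2.63 CPM in URE-LSK, and 3.56, 2.33 and 1.87 CPM in WT-GMP and 8.78, 9.30 and 9.42 CPM in URE-GMP. The rise was 2.06 ± 0.25, adjusted p = 3.8e-06 in LSK and 1.85 ± 0.22, adjusted p = 3.04e-06 in GMP, with a difference of -0.20 ± 0.32, adjusted p = 0.728 between them, and the URE-LSK libraries lay within the range of WT-GMP. Clec12a +6 kb (chr6:129355834-129356153) rose from 3.0 ± 0.514 CPM to 8.54 ± 0.436 CPM in LSK (1.50 ± 0.18, adjusted p = 3.41e-06) and from 3.87 ± 0.680 CPM to 7.81 ± 0.142 CPM in GMP (1.01 ± 0.18, adjusted p = 0.000143). The GMP call of Clec12a +6 kb lay at the fold threshold and was lost without WT-GMP replicate 1 (0.96), WT-GMP replicate 2 (0.89) or URE-GMP replicate 3 (1.0), with library size only (0.89), with a mean CPM of at least 2 (0.95) and with the Y chromosome signal as a covariate (0.99).

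Upstream of Clec12a, a pair of intergenic regions opened in URE-GMP. Clec12a -12 kb (chr6:129337790-129338105) went from 3.71 ± 0.990 CPM to 10.1 ± 0.519 CPM in GMP (1.46 ± 0.27, adjusted p = 0.000212) and from 0.179 ± 0.135 CPM to 0.573 ± 0.139 CPM in LSK (1.57 ± 0.44, adjusted p = 0.00593), where WT libraries held 2 to 16 counts, giving a ratio of 2.95 (95% counting interval 1.81 to 4.99). This LSK value was 1.06 without WT-LSK replicate 1 and 2.47 without WT-LSK replicate 3. Clec12a -12.8 kb (chr6:129337075-129337341) rose in GMP from 0.947 ± 0.604 CPM to 3.88 ± 0.787 CPM (2.10 ± 0.39, adjusted p = 0.000254). In LSK it held 1 to 14 counts per library and was not called (1.09 ± 0.70, adjusted p = 0.195), except with loess offsets and with the replicate block and GC content offsets together.

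At the 3′ side of the gene 2 regions fell in both cell types. Clec12a +19.9 kb (chr6:129369790-129370023, intergenic) held 0.918, 0.897 and 0.764 CPM in WT-LSK against 1 to 3 counts in each URE-LSK library, a ratio of 17.6 (95% counting interval 7.78 to 49.1), and 2.26, 1.64 and 1.59 CPM in WT-GMP against 0.366, 0.572 and 0.436 CPM in URE-GMP. The fitted values were -4.06 ± 0.46, adjusted p = 1.89e-06 in LSK and -1.97 ± 0.32, adjusted p = 6.32e-05 in GMP, and the GMP call was lost with loess offsets (-0.86). Clec12a +13.5 kb (chr6:129363347-129363620, intronic) had 7 counts in the URE-LSK libraries together, all in replicate 1, against 44 in WT-LSK, a ratio of 6.97 (95% counting interval 3.12 to 18.4). It was called in LSK (-2.77 ± 0.74, adjusted p = 0.00477), not with loess offsets (-1.51), and without URE-LSK replicate 1 no URE-LSK count was left, while without URE-LSK replicate 3 the value was -2.13. It fell in GMP from 2.72 ± 0.704 CPM to 0.375 ± 0.137 CPM (-2.84 ± 0.48, adjusted p = 0.000107).

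The intronic region Clec12a +1.3 kb (chr6:129351102-129351460) gave values of opposite sign in the 2 cell types, -0.60 ± 0.30, adjusted p = 0.0974 in LSK and 0.71 ± 0.23, adjusted p = 0.0153 in GMP, neither of them called, while the difference between them was called (1.31 ± 0.38, adjusted p = 0.0262). With GC content offsets its GMP value became a call, and with loess offsets the difference lost its call. The remaining regions of the window, Clec12a -16.1 kb, +16.1 kb and +25.3 kb, were open in all groups. Clec12a -16.1 kb (chr6:129333654-129334170) had means of 22 ± 2.79 CPM, 21.4 ± 3.87 CPM, 23.1 ± 0.562 CPM and 19.3 ± 1.27 CPM in WT-LSK, WT-GMP, URE-LSK and URE-GMP. The log2 fold changes of these 3 regions lay between -0.15 and 0.24 in both genotype comparisons, with adjusted p of at least 0.249.

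**Figure D2:**
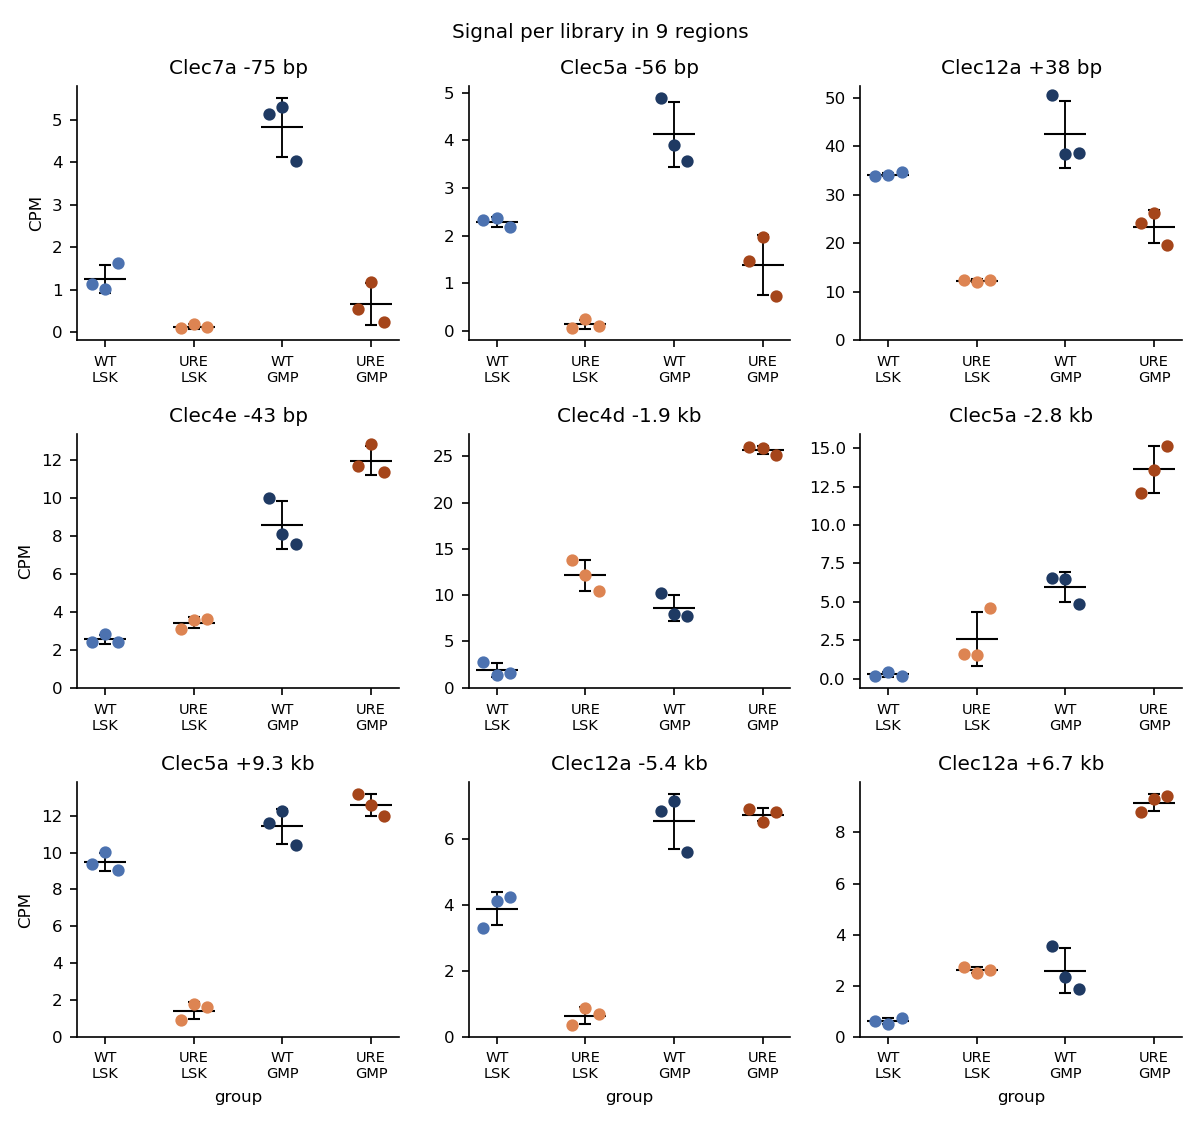
CPM of 9 regions in every library, with 1 panel per region, groups on the x axis, dots for libraries and black bars for the mean ± SD of 3. Clec7a -75 bp, Clec5a -56 bp and Clec12a +38 bp sit lower in URE of both cell types, Clec4d -1.9 kb, Clec5a -2.8 kb and Clec12a +6.7 kb sit higher, and Clec5a +9.3 kb and Clec12a -5.4 kb are low in URE-LSK while their WT-GMP and URE-GMP dots overlap.

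Sorting the 35 regions by their calls in the 2 cell types, 5 rose in both (Clec5a -2.8 kb, Clec4d -1.9 kb, Clec12a -12 kb, +6 kb and +6.7 kb, 14.3%) and 6 fell in both (17.1%, Clec5a +12 kb and -56 bp, Clec12a +13.5 kb and +19.9 kb, Clec7a -75 bp and +20.9 kb). Over all regions, 8.45% rose and 18.7% fell in both. A further 5 members were called lower in LSK alone (14.3%, against 5.11% of all regions), 2 higher in LSK alone (5.71%, against 5.06%), 2 higher in GMP alone (5.71%, against 7.12%) and 15 in neither (42.9%, against 50.1%), and none was called lower in GMP alone (against 5.22%), higher in LSK and lower in GMP (0.0882%) or the reverse (0.0717%). At start sites of any gene, including that of Clec1a, lay 4 of the 11 members that fell in LSK and 3 of the 6 that fell in GMP, against 5.06% and 5.41% of all regions that fell, and 0 of the 7 that rose in either cell type, against 4.44% (LSK) and 4.83% (GMP) of all regions that rose. Start sites held 7 of the 35 members and 15.8% of all regions. The regions that fell in LSK had a median mean level of 2.70 CPM and those that rose 5.61 CPM, beside 3.65 CPM over all members and 2.91 CPM over all regions.

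**Figure D3:**
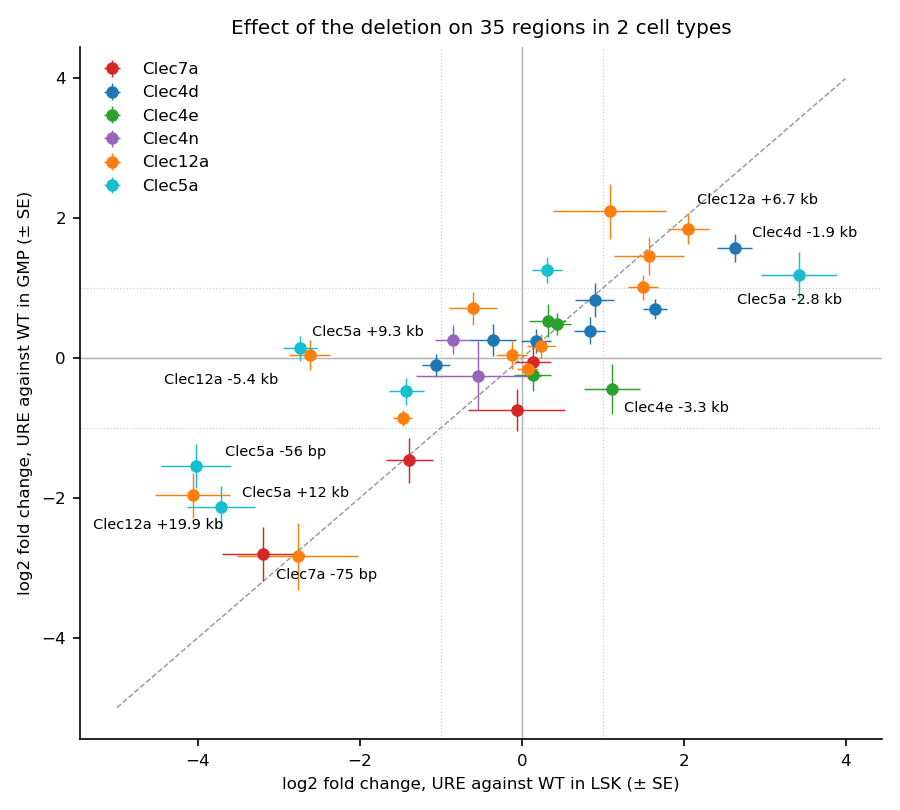
Log2 fold change of URE against WT in LSK (x axis) and in GMP (y axis) for the 35 regions, ± SE, coloured by gene, with dotted lines at 1 and -1 and a dashed line of equal effects. Clec5a +9.3 kb and Clec12a -5.4 kb lie near -2.74 and -2.62 on the x axis and near 0 on the y axis, and Clec7a -75 bp lies close to the dashed line.

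The effect of the deletion differed between the cell types by the interaction test at 9 of the 35 regions (25.7%, against 14% of all regions), with a larger value in GMP at 6 (17.1%, against 8.96%) and a smaller value at 3 (8.57%, against 5.03%). These were Clec5a +9.3 kb, Clec5a -56 bp, Clec12a -5.4 kb, Clec12a +1.3 kb, Clec12a +19.9 kb and Clec4n +19 kb in the first direction and Clec5a -2.8 kb, Clec4d -1.9 kb and Clec4e -3.3 kb in the second. At 4 of the 6, the region had fallen in LSK and its GMP value was nearer to 0, and at all 3 of the second set the region had risen in LSK and its GMP value was lower. The count depended on single libraries: without URE-LSK replicate 1 it was 4, without URE-GMP replicate 3 it was 13, and with loess offsets the split was 4 and 4. The calls of Clec5a +9.3 kb, Clec5a -56 bp and Clec12a -5.4 kb were kept in all 12 fits with 1 library left out.

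**Figure D4:**
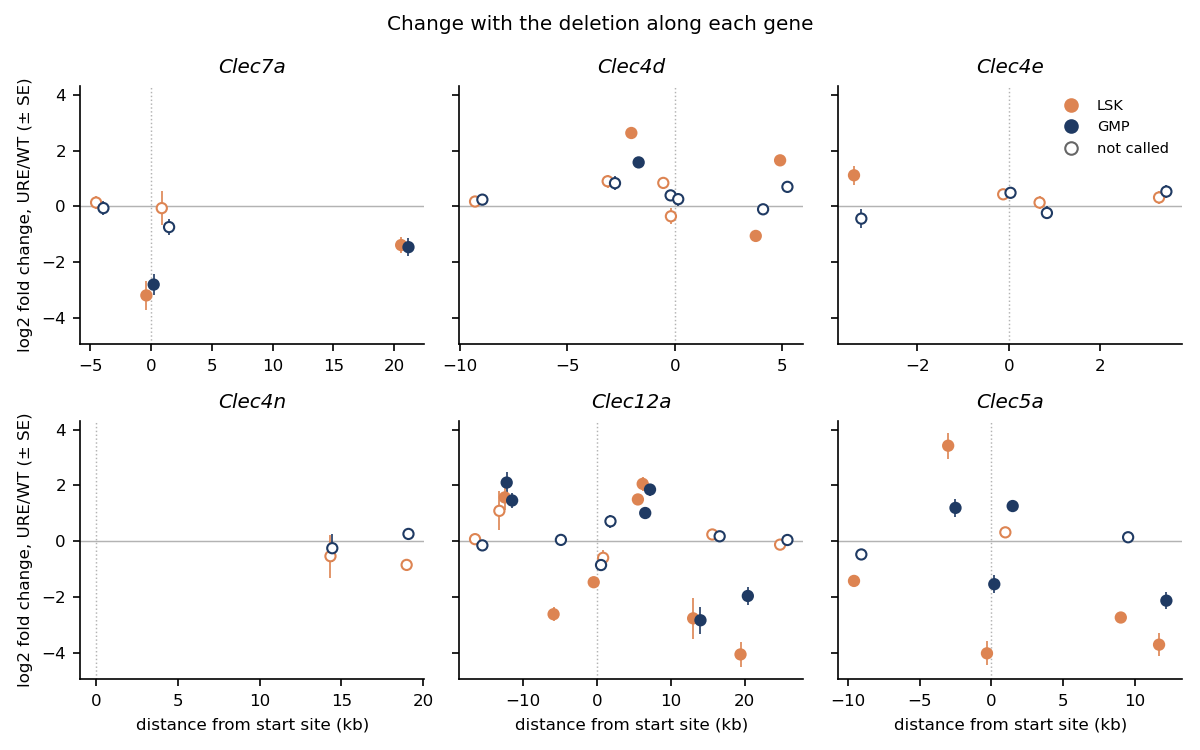
Log2 fold change of URE against WT (± SE) by distance of the region's midpoint from the start site, 1 panel per gene, in LSK (orange) and GMP (blue), with open symbols for regions not called and points of the 2 cell types drawn slightly apart. At Clec5a and Clec12a regions that rose and regions that fell lie in the same window, and at Clec7a the losses are at the start site and at the promoter of Clec1a 20.9 kb downstream.

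From LSK to GMP more member regions rose than fell. In WT, 16 members rose (45.7%, against 21% of all regions) and 2 fell (5.71%, against 16.8%), with a median of 0.82 against -0.01 over all regions. In URE, 21 rose (60%, against 27.6%) and 3 fell (8.57%, against 21.6%), with a median of 1.60 against 0.03. Of the regions that rose, 16 rose in both genotypes, among them the promoters of Clec7a, Clec4e and Clec4d (-10 bp), and 5 were called in URE alone. The same classes were not counted over all regions. The 2 genotypes were not compared for the number of calls, and the difference of the steps is the interaction given above. In both genotypes Clec7a -4.2 kb and Clec7a +20.9 kb fell, and Clec4e -3.3 kb fell in URE (-1.43 ± 0.34, adjusted p = 0.0016).

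Steps of over 4 on the log2 scale were seen in WT at Clec7a +1.2 kb (4.78 ± 0.42), Clec5a -2.8 kb (4.62 ± 0.46, adjusted p = 9.66e-07) and Clec12a -12 kb (4.24 ± 0.38, adjusted p = 3.69e-07, and 5.11 without WT-LSK replicate 3). Their order changed with single libraries. Of the 7 regions that rose with the deletion in LSK, 4 also rose from LSK to GMP in WT, and of the 11 that fell, 5 rose and 1 fell from LSK to GMP. In that WT step 45.7% of all 35 members rose and 5.71% fell, beside 21% and 16.8% of all regions. These pairs of calls were not counted over all regions. The deletion in LSK and the WT step share the WT-LSK libraries, so that their values are set side by side without a test. The WT step of Clec12a +19.9 kb (1.08 ± 0.31) lost its call without WT-LSK replicate 3 or WT-GMP replicate 1 (down to 0.85) and with GC content offsets, and the URE step of Clec4d -1.9 kb (1.08 ± 0.19) without URE-LSK replicate 3 (0.98) and with GC content offsets.

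Summed over their regions, the genes differed in the order of the groups. Clec4d went from 24.1 ± 1.06 CPM (SD, n = 3) in WT-LSK to 49.6 ± 1.83 in URE-LSK, then 50.6 ± 5.25 in WT-GMP and lastly 79.7 ± 1.10 in URE-GMP, with only the middle groups overlapping. Clec5a had 12 ± 1.63 CPM in URE-LSK, 22.2 ± 1.39 in WT-LSK, and 41.7 ± 4.93 (WT) and 44.2 ± 2.39 (URE) in GMP, with the GMP groups overlapping. Clec12a had 59.7 ± 2.61, 77.0 ± 2.25, 99.1 ± 6.06 and 97.8 ± 3.63 CPM in the same order of groups, and again only the GMP groups overlapped.

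Clec7a ran from 4.94 ± 1.19 CPM in URE-GMP through 6.40 ± 1.40 in URE-LSK and 8.61 ± 1.06 in WT-LSK to 11.4 ± 1.70 in WT-GMP, with overlap between neighbours except the last. Clec4n had 7.42 ± 1.49 CPM in URE-LSK and 8.53 ± 0.942 in WT-LSK, which overlapped, and its GMP groups, at 19.2 ± 2.77 (WT) and 22.1 ± 2.55 (URE), overlapped too, and its sum includes the region it shares with Clec4d. Clec4e had 17.1 ± 2.72, 19.6 ± 3.38, 22.0 ± 1.54 and 22.3 ± 1.33 CPM in WT-LSK, WT-GMP, URE-LSK and URE-GMP, with overlap between all neighbours. Divided by the length covered by its regions, WT-GMP levels ran from 9.82 CPM per kb at Clec7a and 13.6 at Clec4e through 17.1 at Clec5a, 18.6 at Clec4d and 20.7 at Clec4n to 22.5 at Clec12a.

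Log2 ratios of these sums, URE over WT, were 1.04 for Clec4d, 0.36 for Clec4e, -0.20 for Clec4n, -0.37 for Clec12a, -0.43 for Clec7a and -0.89 for Clec5a in LSK, and 0.66, 0.18, 0.20, -0.02, -1.20 and 0.09 in GMP. By an exact two-sided permutation test over 3 against 3 libraries the smallest possible p is 0.1, which was reached by Clec4d, Clec4e, Clec12a and Clec5a in LSK and by Clec4d and Clec7a in GMP, so none of the 12 tests could pass 0.05 (0.2 after Benjamini-Hochberg adjustment). A sum hides opposite changes: at Clec5a in GMP the ratio of 0.09 covers 2 regions that rose and 2 that fell.

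**Figure D5:**
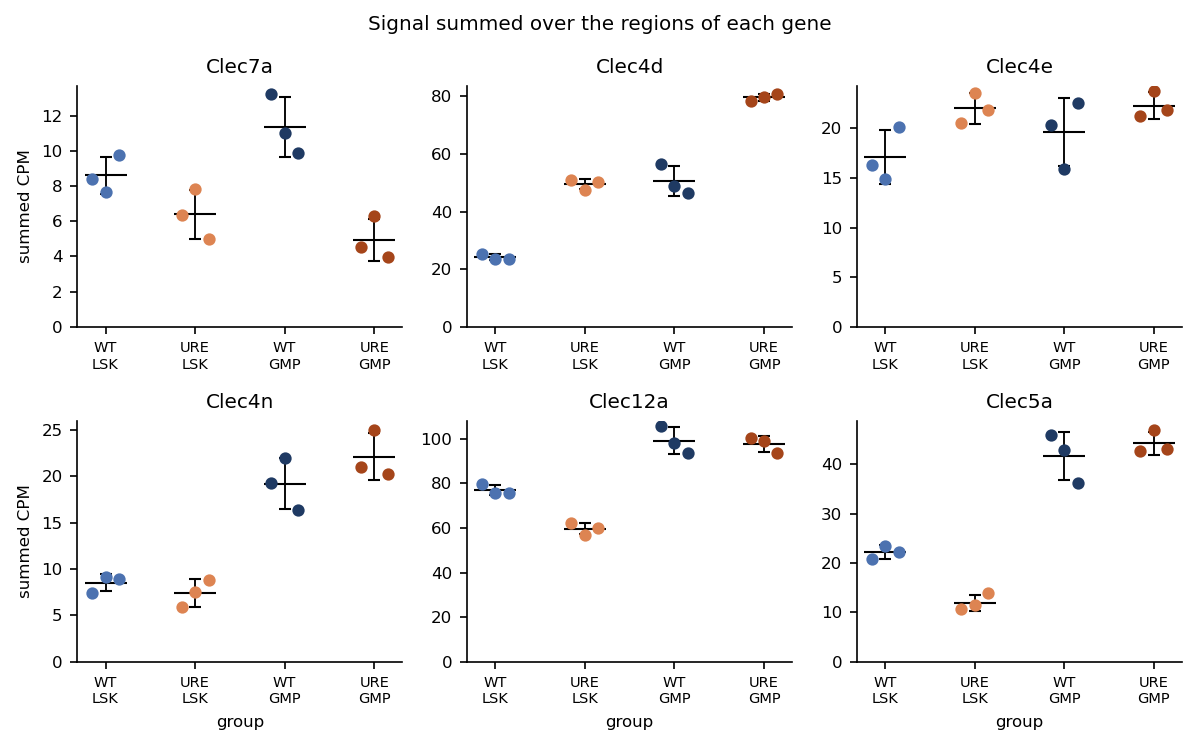
CPM summed over the regions of each gene, 1 panel per gene, with groups on the x axis, dots for libraries and black bars for the mean ± SD of 3. Clec4d is higher in URE than in WT of the same cell type, Clec7a is lower in URE-GMP than in WT-GMP, and Clec5a and Clec12a are lowest in URE-LSK.

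The profile of each gene's sum over the 12 libraries was matched to those of other protein-coding genes with a mean sum of at least 1 CPM, among 17699 to 17701 genes, by the Pearson correlation of log2 values. The libraries share their groups, so these correlations describe likeness of the 4 group levels. Clec5a was most like Alox5ap (r = 0.997), Trem3 (0.997) and Trem1 (0.996), and Trem1 and Trem3 encode DAP12-coupled receptors as Clec5a does. Clec12a was most like Parvg (0.992), Tuba3a (0.991) and Rprd1b (0.987), Clec4d like Pced1b (0.992), Snx12 (0.991) and Ctbp1 (0.991), and Clec4n like Gpr141 (0.990), 4930432M17Rik (0.989) and Smbd1 (0.989). Clec7a was most like Dusp16 (0.976), Pax6 (0.972) and Tbxas1 (0.971). For Clec4e the highest values were lower, with Kif11 (0.906), Btaf1 (0.896) and Fgfbp3 (0.859). Between the members themselves the correlation ran from -0.48 (Clec7a and Clec4d) to 0.98 (Clec12a and Clec5a).

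Genes that act downstream of these receptors were read in the same way. For 18 genes of CARD9-SYK signalling, 212 regions were found, of which 21 rose and 71 fell in LSK (9.91% and 33.5%, against 13.6% and 23.9% of all regions) and 23 rose and 51 fell in GMP (10.8% and 24.1%, against 15.6% and 24.1%), with medians of -0.08 and -0.04. At their promoters, 3 of 18 fell in LSK, beside 1469 of the 19118 regions at start sites of any gene. Those 3 were Fcer1g (-2.03 ± 0.24, adjusted p = 3.08e-06), Tyrobp (-2.64 ± 0.16, adjusted p = 6.1e-09) and Card9 (-2.54 ± 0.17, adjusted p = 1.14e-08), which encode the adaptors that couple to the activating receptors (Fcer1g and Tyrobp) and a signalling adaptor downstream of SYK (Card9). In GMP the same promoters gave -0.18 ± 0.22, -0.57 ± 0.14 and -0.04 ± 0.15. No promoter of the list passed the fold threshold there, while 6 of the 18 had an adjusted p under 0.05 with a smaller fold change. At start sites of any gene, 916 regions rose and 1578 fell in GMP.

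By rule, the called regions with the smallest p of this list were named. In LSK a region 81.0 kb into Lyn, a SRC family kinase gene, fell (-3.70 ± 0.22, adjusted p = 5.07e-09), as did one 3.0 kb from the start site of Ptpn6, which encodes SHP-1 (-1.94 ± 0.10, adjusted p = 1.91e-09), whereas a region 40.4 kb into Ptpn11, which encodes SHP-2, rose (3.82 ± 0.43, adjusted p = 1.73e-06). Nfkb1, encoding an NF-kappaB subunit, held regions moving both ways, among them 1 at 77.1 kb that rose in LSK (2.72 ± 0.31, adjusted p = 2.01e-06) and GMP (2.49 ± 0.28, adjusted p = 1.92e-06). A second Nfkb1 region, at 81.1 kb, rose in GMP (1.89 ± 0.21, adjusted p = 1.65e-06). In GMP another, at 39.0 kb, fell (-3.85 ± 0.27, adjusted p = 3.43e-08), as did a region 4.3 kb into Src (-3.85 ± 0.29, adjusted p = 6.13e-08).

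Among 16 other C-type lectin receptor genes, 14 had at least 1 region, 59 in all. In LSK 5 rose and 27 fell (8.47% and 45.8%), and in GMP 7 rose and 30 fell (11.9% and 50.8%), with medians of -0.99 and -1.04. Of their 8 promoter regions that are not members, 6 fell and 1 rose in both cell types. Among the 19118 regions at start sites of any gene, 732 rose and 1469 fell in LSK, and 916 rose and 1578 fell in GMP. Clec4a3, a neighbour in the same gene cluster as Clec4d, fell in LSK (-5.66) and GMP (-4.40), as did Clec10a, which encodes a macrophage galactose lectin (-4.08 and -3.41). Olr1, which encodes a scavenger receptor for oxidised lipoprotein, was the promoter that rose (2.29 ± 0.54, adjusted p = 0.00179 in LSK and 2.50 ± 0.34, adjusted p = 1.31e-05 in GMP). Beyond its start, a region 3.0 kb into Olr1 rose in GMP (2.80 ± 0.44, adjusted p = 5.31e-05), and one 8.8 kb upstream of Clec2d rose in LSK (1.93 ± 0.56, adjusted p = 0.00764). The Clec1a promoter region is the one described above as Clec7a +20.9 kb and is left out of these counts.

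Both kinds of library, those with and those without Y chromosome signal, were compared within themselves. All 18 calls in LSK and all 13 in GMP had the same direction in each, and 15 and 10 of them exceeded a log2 ratio of 1 in each. Among those that did not, Clec5a -56 bp in GMP was -2.11 with and -0.90 without Y chromosome signal, Clec5a -9.3 kb in LSK was -0.95 and -1.64, and Clec4e -3.3 kb in LSK was 1.46 and 0.92. WT groups hold 1 library with Y chromosome signal and URE groups 2.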

How the data were processed

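ATAC-seq libraries of 12 samples (3 per group) were made by the submitters with the OmniATAC protocol. According to their processing notes and the study's methods, cutadapt trimmed the reads, Bowtie2 placed them on GRCm38, duplicate reads and those off the primary chromosomes were dropped, Genrich called peaks per group, and bedtools merged them. The deposited values are raw counts per merged region from featureCounts, with no normalization. Whether a count is a fragment or a read end is not given in the sources used here. Because peaks were called per group and merged, weak regions enter through the group in which they are open. Region starts were taken as 0-based and printed with 1 added.

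Counts were fitted in edgeR 4.0.16 (limma 3.58.1, R 4.3.3) with TMM scaling, filterByExpr (0 regions removed), glmQLFit and glmQLFTest, with 1 coefficient per group over the 12 libraries. The common biological coefficient of variation was 0.185. All p-values are two-sided and adjusted by Benjamini-Hochberg over all regions. P-values measure the spread between these libraries. Totals per library were 23072701 to 62204826, and counting intervals (95%) cover counting error only. The self-test used simulated counts with known fold changes.

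Members and lists were chosen with earlier results of these data known. Described one by one were each gene's promoter region (within 500 bp of a start site), its region with the highest mean, the called regions with the smallest p per direction and contrast, and the called interaction with the smallest p (20 of 35); the other 15 were named after their values were seen. Sums over a gene's regions were compared by exact permutation tests. Likeness used the Pearson correlation of log2 summed CPM with a small prior. Sequences were read from GRCm38 at the regions' coordinates.

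Alternatives were DESeq2 1.42.0, other scalings (RLE, library size, loess, GC content), filters, thresholds, window sizes, the groups compared alone, a replicate block, each library left out and, added after seeing the data, the Y chromosome signal. The labels do not say whether libraries of 1 number share a mouse. Same-numbered libraries deviated together between LSK and GMP in WT (r = 0.223, 0.257 and 0.264) and in URE (0.112, 0.319 and 0.172) and between genotypes in GMP (0.117, 0.236 and 0.422), but not in LSK (0.150, 0.063 and -0.109). Pairs of different numbers ran from -0.176 to -0.0436 between LSK and GMP in WT and from -0.259 to 0.0980 in URE. Between genotypes they ran from -0.346 to 0.180 in GMP, so that the ranges overlap there, and from -0.204 to 0.138 in LSK. Gene models were GENCODE M21 basic.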

Additional observations from a re-analysis of the deposited data

Results flagged for a closer look

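Each of the 9 results below stands out because the effect of the deletion differed between LSK and GMP by a test of the difference itself (the interaction in edgeR's quasi-likelihood test, adjusted over all regions), given as the GMP effect minus the LSK effect on the log2 scale ± SE. The differences kept in all 12 fits with 1 library left out were Clec5a +9.3 kb (2.88 ± 0.27, adjusted p = 1.4e-05), Clec12a -5.4 kb (2.67 ± 0.33, adjusted p = 0.000103) and Clec5a -56 bp (2.48 ± 0.54, adjusted p = 0.00568). Clec5a -2.8 kb (-2.23 ± 0.59, adjusted p = 0.0161) lost its call without WT-LSK replicate 1 or 3, and Clec12a +19.9 kb (2.10 ± 0.59, adjusted p = 0.0234) without URE-LSK replicate 1 or 3 or URE-GMP replicate 2.

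Clec4n +19 kb (1.11 ± 0.30, adjusted p = 0.0193) lost it without WT-LSK replicate 3 or URE-LSK replicate 1, and Clec12a +1.3 kb (1.31 ± 0.38, adjusted p = 0.0262) without WT-LSK replicate 2, URE-LSK replicate 1 or 2, or URE-GMP replicate 1. Clec4d -1.9 kb (-1.06 ± 0.29, adjusted p = 0.0191) lost it without WT-LSK replicate 2 or 3, URE-LSK replicate 1 or WT-GMP replicate 1. Clec4e -3.3 kb (-1.56 ± 0.49, adjusted p = 0.0404) kept it in 4 of the 12 fits, and was -0.95 without WT-GMP replicate 3.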

How the results depend on the processing

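No called member region changed sign under any setting tried. Within the gene bodies without extension, 10 regions were called in LSK, 6 in GMP, 8 for the step in WT, 12 for the step in URE and 4 for the interaction. No share over all regions was taken for that window. In GMP 20 were called with no fold threshold, 7 with glmTreat, 20 with GC content offsets and 7 at a mean CPM of at least 2, which left 8 regions untested and gave 11 for the step in WT. Over all 121336 regions the GMP calls were 73837 with no fold threshold, 32733 with glmTreat and 50930 with GC content offsets. At a mean CPM of at least 2 they were 21981 of 78097, with 22258 for the step in WT. The interaction had 14 with no fold threshold and 2 with glmTreat, beside 20420 and 3703 of all regions. With 1 library left out the counts ranged from 16 to 19 in LSK, 12 to 14 in GMP, 17 to 19 and 23 to 25 for the steps in WT and URE, and 4 (without URE-LSK replicate 1) to 13 (without URE-GMP replicate 3) for the interaction. Fits with only the groups compared left 3 regions untested in LSK and 1 in the URE step. Among a part of the alternative values, for single regions and gene sums, 867 kept their direction and call, 18 lost and 9 gained a call. A further 22 changed sign, none of them called. These counts do not cover every region, comparison and setting. With glmTreat alone, 4 calls were lost in LSK, 6 in GMP, 3 and 4 for the steps in WT and URE, and 7 for the interaction. The causes were not tested.

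With GC content offsets, alone and with the replicate block, the GMP value was 0.49 and 0.49 at Clec4d +3.9 kb, 0.16 and 0.20 at Clec4e +752 bp, 0.030 and 0.12 at Clec4e -3.3 kb, and 0.45 and 0.46 at Clec7a -4.2 kb. Clec7a -4.2 kb in GMP was 0.049 with loess offsets and 0.0012 with the Y chromosome signal as a covariate, a setting chosen after seeing the data. Clec12a -5.4 kb in GMP was -0.073 with library size only and -0.019 at a mean CPM of at least 2, where Clec4e +752 bp and Clec7a -4.2 kb in LSK were -0.010 and -0.011. With 1 library left out, the values ranged from -0.015 to 0.20 at Clec4e +752 bp and -0.057 to 0.29 at Clec7a -4.2 kb in LSK, and in GMP from -0.51 to 0.10 at Clec4e +752 bp, -0.70 to 0.10 at Clec4e -3.3 kb, -0.045 to 0.13 at Clec12a -5.4 kb and -0.20 to 0.086 at Clec7a -4.2 kb. Gene sums in GMP, whose alternatives were also chosen after seeing the data, gave -0.28 for Clec4n without extension, -0.033 for Clec5a with library size only, and with 1 library left out -0.059 to 0.029 for Clec12a and -0.0054 to 0.16 for Clec5a.

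Fitting the replicate number as a block changed 1 member call, the interaction at Clec5a +12 kb given above, and no other. Regions with under 10 counts in a library, such as Clec12a +13.5 kb and +19.9 kb in URE-LSK, carry wide counting intervals.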
